A study of Mus musculus with 6 samples.

Results

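Transcripts of the mitotic apparatus were examined in TC-1/A9 cells after epigenetic treatment. A list of 56 genes of the spindle, kinetochore, condensin complexes and mitotic exit was used. Genes were listed by name, with earlier results of these data known. Of these, 44 had a named probe detected on at least 1 array and are described here, among 9192 genes tested in all. The other 12, Kif20a, Ncapg, Nuf2, Bub1, Ttk, Cenpe, Ccnb1, Ccnb2, Racgap1, Nek2, Ube2c and Hmmr, had no named probe that passed this filter and were not analysed here. Since 3495 of the kept probes are unnamed here, these genes are not shown to be undetected.

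TC-1/A9 is a tumour line of C57BL/6 background. It derives from TC-1, lung cells co-transformed with the HPV16 oncogenes E6 and E7 and an activated Ha-ras gene, and it was selected for low surface MHC class I by growth of TC-1 tumours in immunized mice. Both groups are therefore the same transformed line in culture, and both carry these oncogenes. The untreated group had no inhibitor. The DAC/TSA group was grown in 3 μM 5-aza-2'-deoxycytidine (DAC), which depletes DNA methyltransferases once it is built into DNA, for 48 h, and then for 24 h in 30 ng/ml trichostatin A (TSA), a histone deacetylase inhibitor. Total RNA from biological triplicates of each group was hybridised to Illumina Mouse WG6 bead arrays, 6 arrays in all. The comparison asks which genes respond to the epigenetic treatment.

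In mitosis, condensin complexes compact the chromosomes, and kinetochores built on the centromeric chromatin attach them to spindle microtubules that kinesin motors arrange. Unattached kinetochores keep the spindle checkpoint active, and its release lets the anaphase-promoting complex free the protease separase, which cuts the cohesin between sister chromatids. Most of these genes are transcribed in G2 and mitosis and repressed in resting cells, through a promoter element named the cell cycle genes homology region (CHR) that is read by the MuvB complex with its RB-like, B-Myb and FoxM1 partners, often beside CCAAT boxes bound by NF-Y. Transcript levels of such genes in a culture vary with the share of its cells that are near mitosis. In RNA of a whole culture, fewer cells near mitosis and less RNA per such cell cannot be told apart, and the cell cycle distribution of these cultures was not analysed here.

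The promoter letters of these genes are shown because CHR and CCAAT letters are frequent among them, though not in every gene, and the choice of genes did not use them. RefSeq windows of assembly GRCm38.p6, which run from 250 bases before to 50 after a transcription start, were given for 37 of the 44 genes, 43 windows in all. The letters TTTGAA, read on both strands, occurred in 30 of the 43 windows (69.8%), against 17.9% of all 32851 windows and 11.5% of the 9597 windows of genes tested. CCAAT, on both strands, occurred in 29 windows (67.4%), against 37.4% of all windows and 37.6% of those of genes tested. Both stood in 23 windows (53.5%), against 6.95% and 4.67%. When the form TTTAAA, the form TTCGAA and the form CTTGAA of the CHR were counted with TTTGAA, the share was 81.4%, against 37.3% and 27.6%. Windows of 1 gene can overlap, and the matches are letters, not measured binding sites.

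The windows below belong to the 3 genes that rose most and the 3 that fell most among those with a window, as given under the results. Capitals mark TTTGAA, which reads TTCAAA on the opposite strand, and CCAAT, which reads ATTGG there, and each window is written 5′ to 3′ on the strand of its gene.
Sgo1, chr17:53689266-53689565, minus strand: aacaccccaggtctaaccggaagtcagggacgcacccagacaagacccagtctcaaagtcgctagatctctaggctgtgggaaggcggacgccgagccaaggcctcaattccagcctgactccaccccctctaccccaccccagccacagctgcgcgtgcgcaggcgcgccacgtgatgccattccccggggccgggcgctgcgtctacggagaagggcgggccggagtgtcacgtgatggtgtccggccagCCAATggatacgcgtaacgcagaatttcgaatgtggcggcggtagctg
Mad2l1, chr6:66534971-66535270, plus strand: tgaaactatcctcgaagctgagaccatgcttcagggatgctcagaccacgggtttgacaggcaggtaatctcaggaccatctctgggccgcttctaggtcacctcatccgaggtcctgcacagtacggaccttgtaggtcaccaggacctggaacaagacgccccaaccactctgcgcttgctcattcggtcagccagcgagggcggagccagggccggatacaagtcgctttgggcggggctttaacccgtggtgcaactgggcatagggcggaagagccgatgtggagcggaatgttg
Ncapg2, chr12:116405186-116405485, plus strand: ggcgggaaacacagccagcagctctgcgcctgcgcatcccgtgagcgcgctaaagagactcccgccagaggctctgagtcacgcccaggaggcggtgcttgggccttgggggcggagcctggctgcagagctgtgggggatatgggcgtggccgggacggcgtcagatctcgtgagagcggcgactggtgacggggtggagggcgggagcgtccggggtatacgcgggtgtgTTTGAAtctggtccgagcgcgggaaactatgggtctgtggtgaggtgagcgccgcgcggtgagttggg
Kif11, chr19:37376132-37376431, plus strand: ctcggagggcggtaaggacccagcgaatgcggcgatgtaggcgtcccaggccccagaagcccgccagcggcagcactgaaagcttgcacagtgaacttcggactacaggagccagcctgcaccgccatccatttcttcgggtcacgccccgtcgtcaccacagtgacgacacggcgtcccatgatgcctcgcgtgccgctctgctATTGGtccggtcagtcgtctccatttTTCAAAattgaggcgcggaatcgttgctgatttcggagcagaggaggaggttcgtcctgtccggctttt
Ncapd2, chr6:125191537-125191836, minus strand: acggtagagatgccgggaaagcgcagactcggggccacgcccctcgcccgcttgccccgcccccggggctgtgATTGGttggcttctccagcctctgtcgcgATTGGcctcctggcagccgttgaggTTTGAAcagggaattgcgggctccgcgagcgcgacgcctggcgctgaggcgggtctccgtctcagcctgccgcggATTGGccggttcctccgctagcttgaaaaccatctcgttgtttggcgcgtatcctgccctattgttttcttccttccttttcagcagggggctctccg
Cenpa, chr5:30666636-30666935, plus strand: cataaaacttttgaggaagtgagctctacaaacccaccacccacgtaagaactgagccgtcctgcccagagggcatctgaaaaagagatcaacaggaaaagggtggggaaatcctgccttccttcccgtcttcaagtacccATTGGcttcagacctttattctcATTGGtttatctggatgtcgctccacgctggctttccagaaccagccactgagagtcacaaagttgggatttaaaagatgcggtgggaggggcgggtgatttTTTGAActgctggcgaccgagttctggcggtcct
Of the genes that rose, Ncapg2 held TTTGAA with its first base 18 before the start, Sgo1 held a CCAAT box whose first base is base 3 of the transcript but no TTTGAA, and Mad2l1 held neither. The Sgo1 window also held 1 of the other CHR forms. All 3 that fell held both sets of letters, at unlike places. In Kif11 TTCAAA began at base -19 and ATTGG at base -45, counted back from the start. In Ncapd2 TTTGAA began at base -123 and ATTGG at -177, -148 and -48. In Cenpa TTTGAA began at base 17 of the transcript and ATTGG at -109 and -86. Over all genes with a window, TTTGAA was in 4 of 7 windows of genes that rose, 4 of 4 of genes that fell and 22 of 32 of genes that did not pass. The 4 CHR forms together were in 6 of 7, 4 of 4 and 25 of 32. Overlapping windows of Bub3, which rose, share a TTCAAA and were counted separately. These small numbers were not tested. Spc24, which also rose, had no window here.

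DAC/TSA moved the mitotic genes little and in both directions. Of the 44 genes, 8 were higher in DAC/TSA (Sgo1, Spc24, Mad2l1, Ncapg2, Spc25, Bub3, Birc5 and Zwilch), 5 were lower (Kif11, Ncapd2, Cenpa, Bub1b and Incenp), and 31 did not pass an adjusted p of 0.01 in limma. The 13 that passed are 29.5% of the 44, against 43.9% of all genes tested (22.5% higher and 21.4% lower). Folds of these 13 lay between 1.27 and 1.85, and none of the 44 genes reached 2-fold. The median log2 difference, DAC/TSA minus untreated, was -0.01 over the 44 genes and 0.01 over all genes. The median size of the difference, whatever its sign, was 0.24 against 0.31. Arrays of the groups did not overlap for 24 of the 44 genes (54.5%), against 63.9% of all genes. Scaling each array on the median of all probes, a setting chosen after the data were seen, left 2 genes higher and 0 lower, against 8 and 5, and over all genes 1219 higher and 776 lower, against 2072 and 1964.

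**Figure D1:**
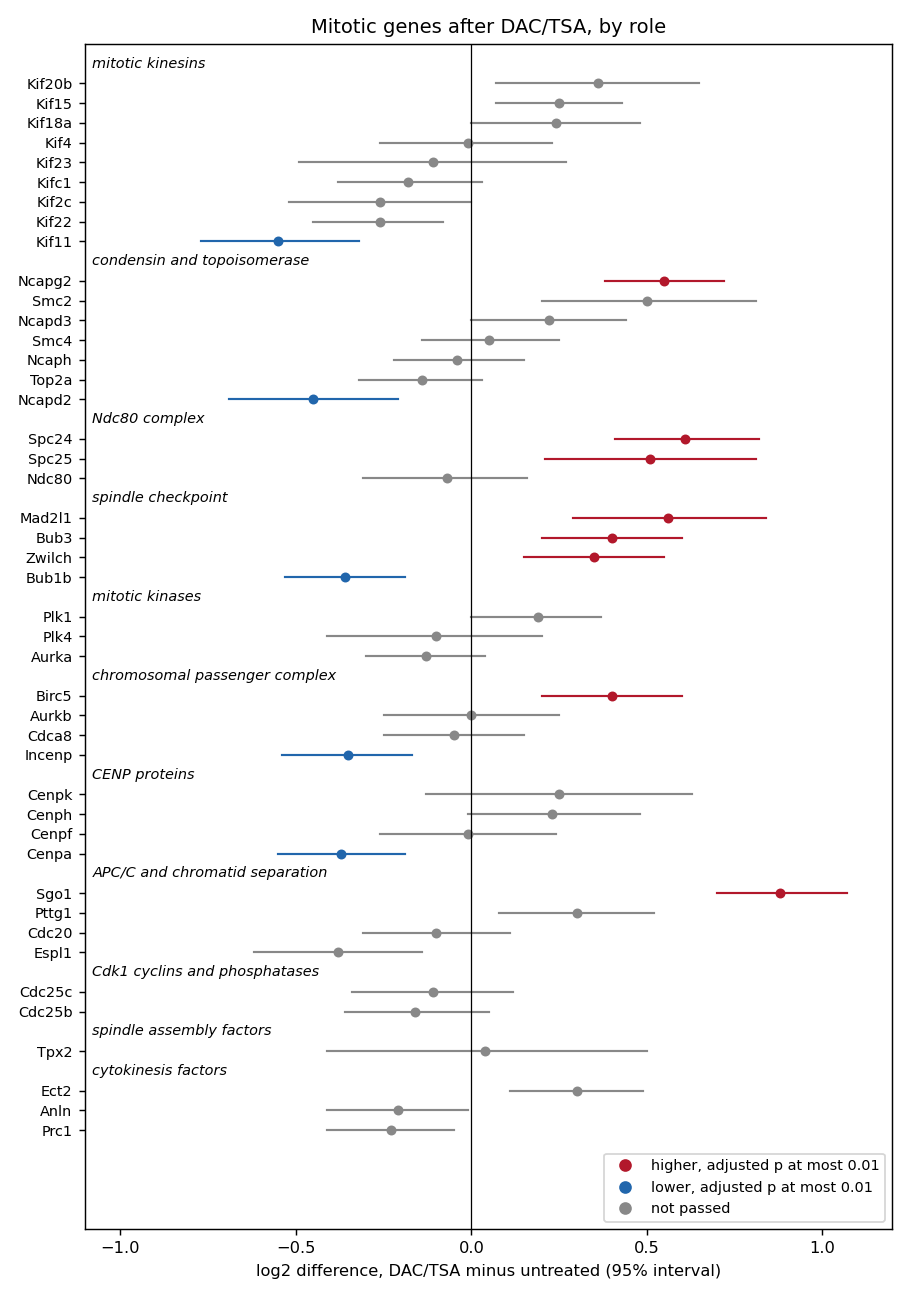
Log2 difference between 3 DAC/TSA and 3 untreated arrays (x axis) for each of the 44 mitotic genes (y axis), by role. Points are limma estimates and bars their 95% intervals. The 8 red genes were higher, the 5 blue ones lower, and 31 grey ones did not pass, and several roles hold both colours.

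Across probes, departures from the group means correlated at 0.63 between the 2 arrays numbered 1. They correlated at 0.24 and 0.36 within numbers 2 and 3, and at 0.37 and 0.38 between unlike numbers 2 and 3. A pairing by replicate number therefore rests mainly on number 1. With the number as a block in the fit, 13 genes were higher and 8 lower, 21 of 44 (47.7%), against 56.7% of all genes. All 13 calls of the fit without the block remained in it, and Ect2, Espl1, Kif18a, Kif20b, Kif22, Kif2c, Pttg1 and Smc2 were added. The arrays numbered 1 had the lowest signal of both groups for 13 of the 44 genes and the highest of both groups for 12. Leaving out 1 array at a time left 3 to 8 genes higher and 1 to 5 lower. The counts fell by over 1.5 times without untreated array 2 (5 higher and 1 lower), untreated array 3 (5 and 4), DAC/TSA array 2 (3 and 1) and DAC/TSA array 3 (7 and 1). Sgo1 and Ncapg2 passed in all 14 alternative fits, Kif11 and Spc24 in 13, and the other 9 genes in 5 to 10 of them. The sign of all 13 was the same in each. In the fits with the block or another detection filter it could not change, since the difference itself is the same there.

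**Figure D2:**
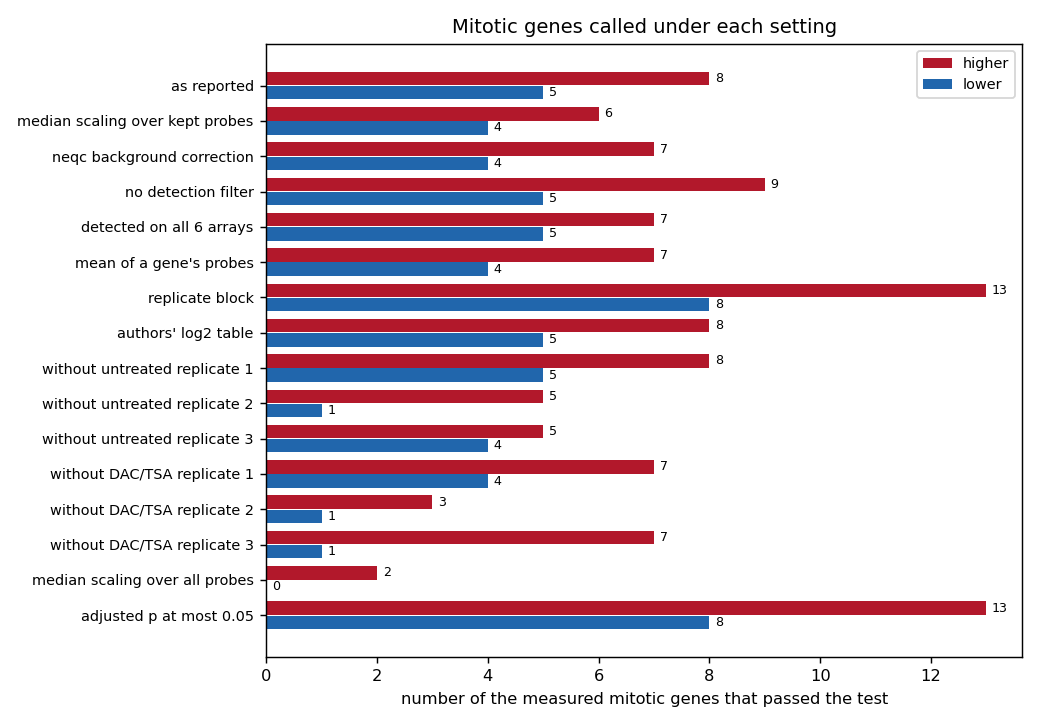
Number of the measured mitotic genes that passed (x axis), higher in red and lower in blue, under the reported setting and each alternative (y axis). The counts were 8 and 5 as reported, 13 and 8 with the replicate block or at an adjusted p of 0.05, and 2 and 0 with scaling on the median of all probes.

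Sgo1 had the largest increase of the 44. It encodes shugoshin, which shields centromeric cohesin from removal until anaphase. Its log2 signal was 8.57, 8.48 and 8.38 on untreated arrays 1 to 3 and 9.37, 9.41 and 9.31 on DAC/TSA arrays 1 to 3. Every treated array was above every untreated one. The difference was 0.88 ± 0.08 (SE), or 1.85-fold (95% interval 1.62 to 2.10), with an adjusted p of 1.34e-05 in limma. Its partners in chromatid separation did not pass. Espl1, which encodes separase, read 7.82, 7.84 and 7.58 against 7.53, 7.37 and 7.20, lower on every treated array, with a difference of -0.38 ± 0.11 (adjusted p = 0.0134 without and 0.0007 with the block). Pttg1, the separase inhibitor securin, differed by 0.30 ± 0.10 (adjusted p = 0.0265 without and 0.0048 with the block). It was detected on 1 of 3 untreated and 3 of 3 treated arrays, near the lower end of measurement. Cdc20, the activator of the anaphase-promoting complex, differed by -0.10 (95% interval -0.31 to 0.11).

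Within the Ndc80 complex, which ties microtubules to the kinetochore, the subunits at the kinetochore end rose. Spc24 read 7.08, 7.19 and 7.30 untreated and 7.89, 7.84 and 7.69 after DAC/TSA, 1.53-fold (interval 1.33 to 1.76, adjusted p = 0.00029). Spc25 read 6.87, 7.29 and 7.40 against 7.57, 7.72 and 7.81, 1.42-fold (1.16 to 1.75, adjusted p = 0.00849). For both genes no treated array fell to the untreated range. Ndc80, the subunit at the microtubule end, read 7.83, 8.18 and 8.06 against 7.84, 8.04 and 7.96, so its groups overlapped, and the interval of its difference ran from -0.31 to 0.16. Whether Spc24 and Ndc80 differ in response was not tested. The call of Spc25 was lost without untreated array 2 (adjusted p = 0.0133) and without DAC/TSA array 2 (0.0326) or 3 (0.0373), while that of Spc24 remained without any 1 array.

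Of 6 listed genes of the spindle checkpoint 4 were measured, without Bub1 and Ttk. These 4 passed the test, where 43.9% of all genes did, and not all in the same direction. Mad2l1, whose product blocks Cdc20 at unattached kinetochores, read 9.73, 10.13 and 10.12 untreated and 10.39, 10.63 and 10.66 after treatment, 1.48-fold higher (1.23 to 1.78, adjusted p = 0.00296). Bub3, which recruits checkpoint proteins to kinetochores, read 8.15, 8.19 and 8.0 against 8.62, 8.46 and 8.46, 1.32-fold higher (1.15 to 1.51, adjusted p = 0.00354). Zwilch, part of the complex that brings Mad proteins and dynein to the kinetochore, read 6.96, 7.05 and 6.89 against 7.35, 7.41 and 7.19, 1.27-fold higher (1.11 to 1.46, adjusted p = 0.00744). These increases were small but separated all arrays of the groups. Bub1b, or BubR1, which holds Cdc20 together with Mad2l1 and Bub3, moved the other way. Its signals were 10.46, 10.44 and 10.46 untreated and 10.14, 10.02 and 10.12 after treatment, 1.28-fold lower (1.14 to 1.45, adjusted p = 0.00307), with a spread of 0.01 (SD) among untreated arrays. Each of these calls was lost without 1 array or another. Mad2l1 lost it without DAC/TSA array 2 or 3 (adjusted p = 0.0164 and 0.0154), Bub3 without untreated array 3 or DAC/TSA array 1 or 2 (0.0189, 0.0127 and 0.0114), Zwilch without untreated array 2 or 3 or DAC/TSA array 1 or 2 (0.0125, 0.0337, 0.0206 and 0.0402), and Bub1b without array 2 or 3 of either group (0.0112 to 0.0196).

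Of 7 measured genes of condensin and its topoisomerase partner, 1 was higher and 1 lower, where 22.5% of all genes were higher and 21.4% lower. Ncapg2, a subunit of condensin II, which acts in the nucleus from prophase, read 7.57, 7.50 and 7.48 untreated and 8.05, 8.08 and 8.07 after DAC/TSA, 1.46-fold higher (1.30 to 1.64, adjusted p = 0.000181). Its treated arrays lay within a spread of 0.01 (SD). Ncapd2, of condensin I, which reaches chromosomes after nuclear envelope breakdown, read 8.82, 9.26 and 9.02 against 8.60, 8.57 and 8.59, 1.37-fold lower (1.15 to 1.62, adjusted p = 0.00579). Smc2, an ATPase subunit shared by both complexes, was higher on every treated array (7.41, 7.03 and 6.78) than untreated (6.57, 6.50 and 6.64) but narrowly missed the threshold, with a difference of 0.50 ± 0.14 and an adjusted p of 0.011 (0.00201 with the block). Smc4, its partner, differed by 0.05 (interval -0.14 to 0.25), Ncaph of condensin I by -0.04 (-0.22 to 0.15) and Ncapd3 of condensin II by 0.22 (0.00 to 0.44), none of which passed. Top2a, the topoisomerase that untangles sister chromatids, read 10.55, 10.54 and 10.56 against 10.31, 10.43 and 10.47, a difference of -0.14 ± 0.08 that did not pass either. The call of Ncapd2 was lost on leaving out untreated array 2 or 3 or any DAC/TSA array (adjusted p 0.0127 to 0.0247), and that of Ncapg2 on leaving out none.

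The chromosomal passenger complex, which corrects faulty attachments and steers cytokinesis, also held both directions. Birc5, or survivin, read 10.76, 10.54 and 10.59 untreated and 11.08, 11.07 and 10.94 after treatment, 1.32-fold higher (1.15 to 1.51, adjusted p = 0.00396). Incenp, the scaffold of the complex, read 8.92, 8.95 and 8.82 against 8.45, 8.60 and 8.57, 1.28-fold lower (1.12 to 1.45, adjusted p = 0.00477). In both, the groups did not overlap. Aurkb, its kinase, read 8.34, 8.74 and 8.76 against 8.56, 8.62 and 8.65, so treated values lay inside the untreated range, and the interval of its difference ran from -0.25 to 0.25. Cdca8, or borealin, differed by -0.05 (-0.25 to 0.15). Leaving out untreated array 2 or 3 or DAC/TSA array 1 or 2 ended the call of Birc5 (adjusted p 0.0129 to 0.0211). That of Incenp ended without untreated array 2 or without any DAC/TSA array (0.0126 to 0.0231).

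**Figure D3:**
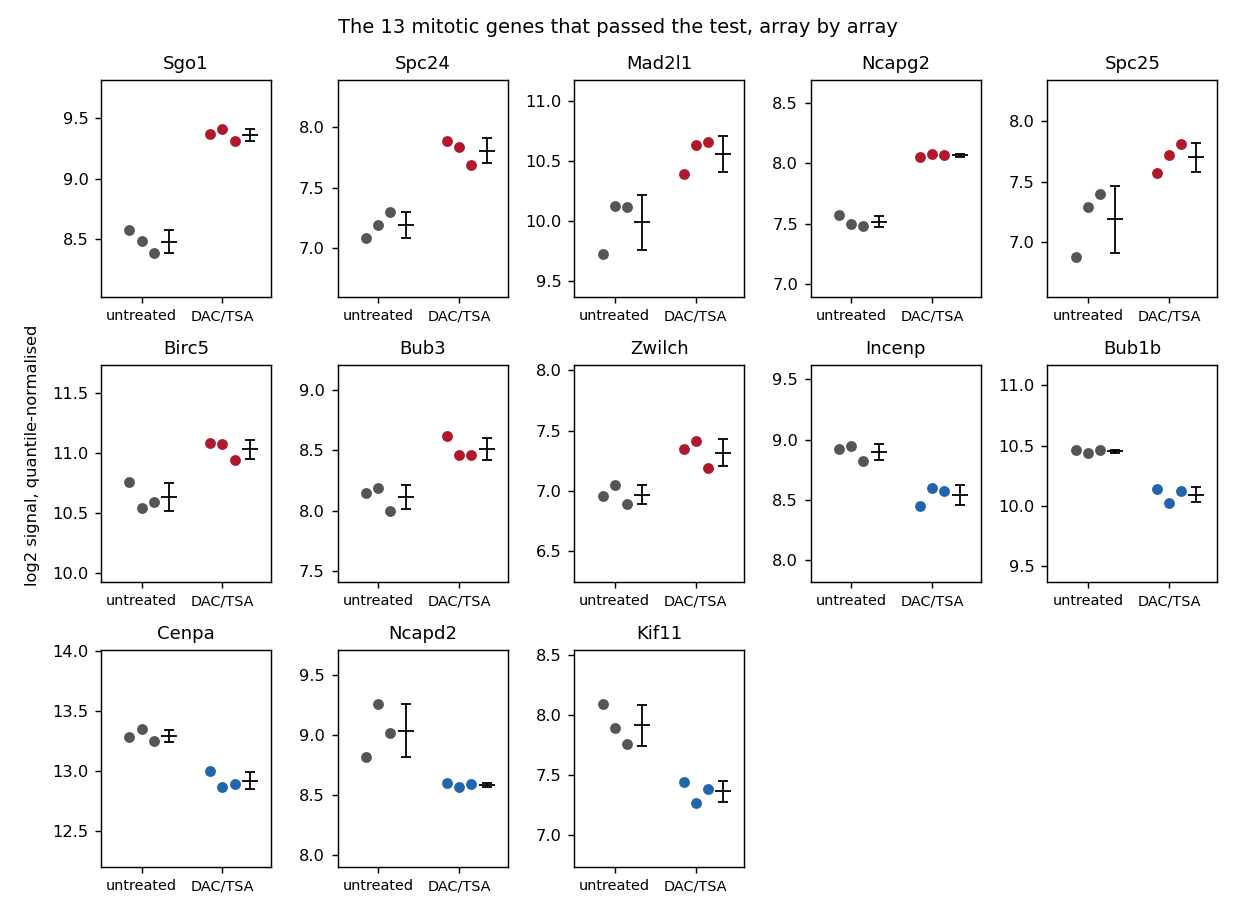
Log2 signal (y axis, the same span in each panel) of the 13 mitotic genes that passed, on the 3 untreated and 3 DAC/TSA arrays, with mean and SD beside the points. Treated arrays lay wholly above the untreated ones for the 8 genes in red and wholly below for the 5 in blue.

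Among the motors, Kif11 fell and no kinesin rose past the threshold. Kif11 encodes the motor that pushes spindle poles apart. It read 8.09, 7.89 and 7.76 untreated and 7.44, 7.27 and 7.39 after DAC/TSA, 1.46-fold lower (1.25 to 1.70, adjusted p = 0.00109), and its call remained without any 1 array. Kif15, which can also hold spindle poles apart, did not overlap between groups and was 0.25 ± 0.08 higher, but did not pass (adjusted p = 0.0243). Of the chromokinesins, which move chromosome arms, Kif22 differed by -0.26 ± 0.08 (adjusted p = 0.0208, and 0.00537 with the block), and Kif4 by -0.01 (interval -0.26 to 0.23). Kif2c, a microtubule depolymerase at centromeres, differed by -0.26 ± 0.12, Kif18a, which dampens chromosome movements, by 0.24 ± 0.11, and Kif20b, which acts in cytokinesis, by 0.36 ± 0.13, and each passed with the block but not without it. Kifc1, which clusters spindle poles, differed by -0.18 ± 0.09.

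Kif23, the motor of the central spindle, was measured by 4 probes that differed in their calls, a case singled out after its values were seen. Its brightest probe read 9.87, 10.18 and 10.29 untreated and 9.59, 10.26 and 10.16 after treatment, a difference of -0.11 ± 0.17 that did not pass. The next probes in brightness were lower by -0.35 ± 0.09 (adjusted p = 0.00808) and -0.69 ± 0.09 (adjusted p = 0.000121), and the dimmest, detected on 4 arrays, differed by 0.05 ± 0.13. The 3 bright probes had a negative difference, and 2 of them passed. Of the 44 genes, 19 had several kept probes, among them 9 of the 13 that passed. All 12 further probes of those 9 genes had the sign of the brightest one, and 3 of them passed too, 1 each for Spc24, Birc5 and Zwilch.

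**Figure D4:**
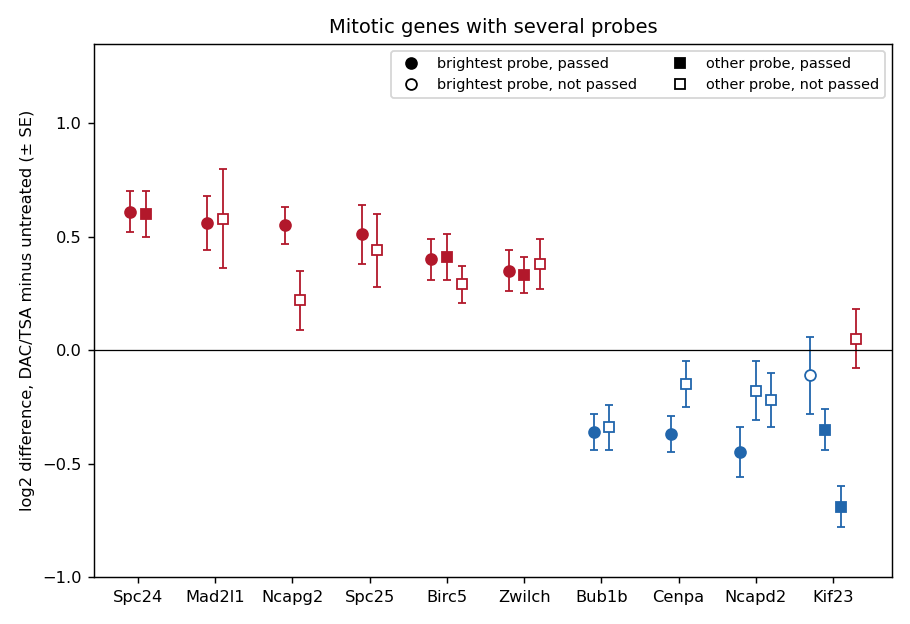
Log2 difference with its SE (y axis) for each kept probe of the 9 called genes with several probes, and of Kif23 (x axis). Circles are the brightest probe and squares the others, filled where adjusted p was at most 0.01. Probes of a called gene lay on 1 side of 0, whereas those of Kif23 ran from -0.69 to 0.05.

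At the centromere, Cenpa fell. It encodes the histone variant that marks the centromere. Signals were 13.28, 13.35 and 13.25 untreated and 13, 12.87 and 12.89 after DAC/TSA, 1.30-fold lower (1.14 to 1.47, adjusted p = 0.00306), with no overlap. Cenpf, of the outer kinetochore, differed by -0.01 (interval -0.26 to 0.24). Cenph and Cenpk, of the inner kinetochore, differed by 0.23 ± 0.11 and 0.25 ± 0.17, and neither passed. Cenph was detected on no untreated array and on 2 of 3 treated ones. The call of Cenpa was lost without array 2 of either group or DAC/TSA array 3 (adjusted p 0.0157 to 0.0183).

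Mitotic kinases, Cdk1 phosphatases, and spindle and cytokinesis factors gave no call. Plk1, the polo-like kinase of mitotic entry and exit, read 10.05, 10.21 and 10.18 against 10.37, 10.36 and 10.27, higher on every treated array by 0.19 ± 0.08 on average, with an adjusted p of 0.0822. Aurka, the kinase of spindle poles, differed by -0.13 ± 0.08, and Plk4, which starts centriole duplication, by -0.10 ± 0.14. Cdc25b and Cdc25c, which activate Cdk1, differed by -0.16 ± 0.09 and -0.11 ± 0.10. Tpx2, an activator of Aurora A on the spindle, had the widest spread between cultures of the 44 genes in both groups (SD 0.32 untreated and 0.43 treated). Its signal ran from 6.57 to 7.20 untreated and from 6.48 to 7.33 treated, with an interval of -0.41 to 0.50 for the difference. Ect2, which acts in cytokinesis, differed by 0.30 ± 0.08 (adjusted p = 0.0119, and 0.00294 with the block). Prc1 and Anln, which bundle midzone microtubules and organise the contractile ring, differed by -0.23 ± 0.08 and -0.21 ± 0.09, without overlap of the groups but also without passing. In all, the 31 genes that did not pass ran from -0.38 to 0.50. Of these 31, 24 had a 95% interval inside 0.5 log2 either side of 0, and 11 had an unadjusted p under 0.05.

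Differences of the mitotic genes went with the brightness of their probes, which depends on the probe as well as on its transcript. Of 12 genes with an untreated mean log2 signal of 10 or more, 10 had a difference below 0 (83.3%), against 53.5% of 1826 such genes in all. Of 11 genes under 7, 9 had a difference above 0 (81.8%), against 58.1% of 3093. The filter asked for detection on any 1 array, so a dim gene could enter through the DAC/TSA arrays alone, which favours a difference above 0. Cenph, counted among the 9, was such a gene, and 573 of the 9192 genes tested were detected on no untreated array. No conclusion is drawn from the shares under 7. The correlation of difference with untreated mean was -0.41 over the 44 genes and -0.20 over all genes. The points share the same 6 arrays, and the untreated mean enters both axes, so these are descriptions. The shares depend on where the limits fall, since Mad2l1, which rose, has an untreated mean of 9.99, and some of the differences counted are close to 0. Most genes counted did not pass. Only Cenpa and Bub1b passed among the 10 bright genes below 0, and only Zwilch among the 9 dim genes above 0. Birc5 and Plk1 were the bright genes with a positive difference.

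**Figure D5:**
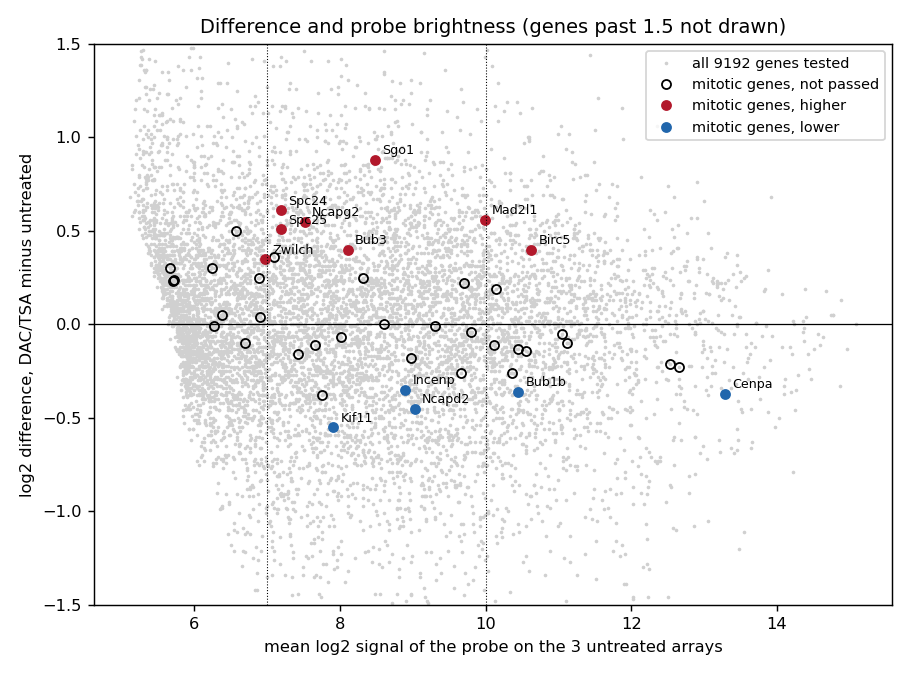
Log2 difference (y axis) against the mean log2 signal on the untreated arrays (x axis) for the 44 mitotic genes and all 9192 genes tested, genes past 1.5 left out. Dotted lines stand at 7 and 10, and at the bright end 10 of 12 mitotic genes lay below 0.

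Other mitotic genes, from a list of 71 of which 52 were measured, gave 11 higher and 5 lower (30.8% called, against 43.9% of all genes), with a median difference of 0.17. The largest increase was that of Zw10, the partner of Zwilch, with 8.58, 8.64 and 8.61 untreated and 9.74, 9.77 and 9.78 after treatment, 2.22-fold (1.98 to 2.49, adjusted p = 1.05e-06), and all 3 of its probes passed. Kntc1, the remaining subunit of that complex, differed by -0.29 ± 0.08 and did not pass (adjusted p = 0.0107). Kntc1 was looked up for its place in the complex after the values had been seen. Cenpp of the inner kinetochore (1.67-fold), Cdkn3, a phosphatase that acts on Cdk1 (1.57-fold), and Haus6, of the complex that branches spindle microtubules (1.54-fold), were next. Clasp2, which stabilises microtubule ends, fell 2.28-fold, Numa1, which anchors microtubules at spindle poles, 1.81-fold, Cit, a kinase of the midbody, 1.58-fold, and Pkmyt1, which inhibits Cdk1, 1.41-fold. A further, dim probe of Clasp2 differed by -0.07 and a further probe of Haus6 by -0.05, and neither passed. Cdk1, the kinase that drives entry into mitosis, read 10.05, 10.22 and 10.31 against 10.55, 10.71 and 10.70, 1.38-fold higher (1.19 to 1.59, adjusted p = 0.00214), a call lost without DAC/TSA array 2 (0.0133) or 3 (0.0115). Scaled on all probes, this list gave 3 higher and 3 lower.

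Factors that control these genes were called in both directions. Of 25 listed regulators of transcription in G2 and mitosis 17 were measured, and 3 were higher and 3 lower (35.3% called, against 43.9% of all genes). Foxm1 read 8.81, 8.88 and 8.87 against 8.92, 8.93 and 9.06, a difference of 0.12 ± 0.08 that did not pass. Mybl2, which encodes B-Myb, fell 1.34-fold, from 8.89, 9.09 and 9.03 to 8.49, 8.64 and 8.60 (adjusted p = 0.00207), and lost its call without untreated array 2 (0.0119) or 3 (0.0101). E2f1 fell 1.40-fold and E2f4 1.31-fold, while E2f3 rose 1.57-fold and Rb1, the retinoblastoma gene, 1.34-fold. Tfdp2, a partner of E2F proteins, was 1.32-fold higher by its brightest probe, but a probe of nearly the same brightness passed as lower, by -0.89 (adjusted p = 6.95e-06), and the mean of its 5 probes differed by 0.00. Its place among the 3 higher rests on the choice of the brightest probe. Calls of E2f4 and Tfdp2 were each lost without untreated array 2 or DAC/TSA array 3, among others (adjusted p 0.0126 to 0.0258 over those arrays). Cdkn1a, the p21 inhibitor, differed by -0.23 ± 0.08 at its brightest probe and did not pass (adjusted p = 0.0289). Of its other probes, 1 passed as lower, by -0.33 (adjusted p = 0.00832), and 1 differed by -0.15 and did not. Trp53 and Ccna2 had no named kept probe. Scaled on all probes, the list gave 1 higher and 0 lower.

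Cohesin genes and subunits of the anaphase-promoting complex were called at 30.8% (4 of 13) and 27.3% (3 of 11), against 43.9% of all genes. Of the 13 measured cohesin subunits and regulators, Esco2, an acetyltransferase that locks cohesin on sister chromatids, was 1.42-fold higher, and Hdac8, the deacetylase of cohesin (1.64-fold), Nipbl (1.28-fold) and Mau2 (1.28-fold), which load it, were lower. Of the 11 measured genes of the anaphase-promoting complex, Anapc4 was 1.31-fold higher and Anapc11 (1.46-fold) and Anapc5 (1.27-fold) were lower. The other 2 probes of Anapc5 differed by 0.04 and 0.00 and did not pass, so its call rests on 1 of 3 probes. Of these 7 calls those of Hdac8 and Anapc11 remained without any 1 array. The other 5 were each lost without untreated array 2 or DAC/TSA array 2, among others (adjusted p 0.0106 to 0.0378). DNA replication genes, which act in the preceding phase of the cycle, showed 17 higher and 3 lower of 48 measured (41.7% called, near the 43.9% of all genes, median 0.12), and 7 higher and 0 lower when scaled on all probes. Rrm2 (1.76-fold), Ccne2 (1.75-fold), Rpa1 (1.73-fold) and Gins4 (1.59-fold) led the increases, and Pold3 (1.56-fold), Tk1 (1.41-fold) and Pold1 (1.30-fold) were lower. Whether the replication and mitotic lists differ was not tested.

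As checks on the arrays, 14704 to 14802 probes were detected on the untreated arrays and 15008 to 15783 on the DAC/TSA arrays, and arrays of a group correlated at 0.992 or above. Of 11 measured housekeeping genes, Rplp0 and Tfrc were higher and Pgk1, Gapdh and Gusb lower (45.5% called, near the 43.9% of all genes), from -0.86 to 0.56 in log2 difference. A further, dim probe of Pgk1 differed by 0.17 and did not pass. Of 25 immune cell markers 17 had no named kept probe, Ptprc, Cd3e and Itgam among them. The other 8 all passed, 6 higher and 2 lower, where 43.9% of all genes passed. Of these 8, Lyz1, Lyz2, Fcer1g and Laptm5 were detected on no untreated array. The filter kept these 4 only through the DAC/TSA arrays, which favours a call as higher, so the count cannot be set against that share. The summed signal of the 8, on the linear scale, was 631 to 655 untreated and 829 to 863 after DAC/TSA, and its part in the values above was not tested. Of the lung epithelial markers, 4 of 13 were measured and all 4 were higher, Krt8 and Krt18 among them, where 22.5% of all genes were. Krt18 and Napsa were detected on no untreated array, so the filter kept them only through the DAC/TSA arrays. Nkx2-1 and Sftpc had no named kept probe. Of the 10 endothelial markers 7 had no named kept probe. The 3 measured all passed, 2 higher and 1 lower, where 43.9% of all genes passed, too few genes for a comparison.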

How the data were processed

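RNA of 3 untreated and 3 DAC/TSA-treated TC-1/A9 cultures was measured on Illumina Mouse WG6 arrays. The authors extracted signals with BeadStudio, and the deposited intensity of 45281 probes is linear and not normalised. The deposited detection p-value beside each signal carries no sample name, and it fell step by step with that signal on all 6 arrays. The authors also deposited quantile-normalised log2 values of 16148 probes, used as an alternative.

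Without background correction, intensities were quantile-normalised and log2-transformed. A total of 17445 probes, those whose detection p reached 0.01 or lower on any array, were kept. Names came from a probe annotation that covers only probes of the authors' log2 values. Of the kept probes, 13943 carried 1 symbol in it, 7 several, and 3495 were absent from it and are unnamed here. Symbols were updated to RefSeq (GRCm38.p6) through Entrez identifiers. The brightest kept probe stood for a gene. Groups, taken from sample titles, were compared by limma 3.58.1 in R 4.3.3 (lmFit and eBayes, two-sided, Benjamini-Hochberg over kept probes, threshold 0.01). Intervals are at 95%, and the number of arrays limits precision. The fit was tested on simulated data.

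The genes and lists were chosen with earlier results of these data known. Every mitotic gene is given by role, with its signal on each array if it passed, and for Cdk1, Plk1, Aurkb, Ndc80, Smc2 and Top2a in any case. From each list beside them come the 4 called genes with the largest difference each way, and Foxm1, Mybl2 and Cdkn1a. Further array values were chosen after they were seen.

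Across probes, the departures of arrays from their group means correlated at 0.63, 0.24 and 0.36 between arrays numbered 1, 2 and 3 in the titles, so the number was used as a block in an alternative fit. Unlike numbers 2 and 3 also correlated, at 0.37 and 0.38. Other alternatives changed the scaling, background correction (neqc, offset 16), filter, probe of a gene, table and threshold, or left out 1 array. Figures were drawn with matplotlib 3.10.9.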

Additional observations from a re-analysis of the deposited data

How the results depend on the processing

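All 13 calls among the mitotic genes kept their sign in the 14 alternative fits, but 11 of the 13 lost significance in at least 1 of them. The block and both changes of filter leave the differences of these 13 genes unchanged, so the sign could not change there. Against 8 higher and 5 lower, the counts were 13 and 8 with the replicate block and also at an adjusted p of 0.05, and 2 and 0 with scaling on the median of all probes, which was chosen after the data were seen. Leaving out 1 array gave 3 to 8 higher and 1 to 5 lower. Scaling on kept probes, neqc, either filter, the mean of a gene's probes and the authors' table left both counts within 1.5 times. Some of these are near repeats of the reported fit. The fit without the filter used the same probe per gene, and the authors' values differed by at most 0.0125 log2. The median difference of the 44 genes, -0.01, was -0.04 over those detected on all 6 arrays, 0.05 with scaling on all probes and -0.06 to 0.06 without 1 array.

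For the lists, scaling on all probes gave, higher and lower, 3 and 3 other mitotic genes (against 11 and 5), 0 and 0 of the anaphase-promoting complex (1 and 2), 0 and 1 of cohesin (1 and 3), 1 and 0 regulators (3 and 3), 7 and 0 replication genes (17 and 3) and 0 and 0 housekeeping genes (2 and 3). The block gave 19 other mitotic genes higher, 4 of the anaphase-promoting complex higher, 2 of cohesin higher and 5 replication genes lower. An adjusted p of 0.05 gave 22 and 9 other mitotic genes, 3 of the anaphase-promoting complex higher and 5 replication genes lower. For the anaphase-promoting complex, scaling on kept probes and neqc gave 0 and 1, and the mean of probes gave 1 lower. Without 1 array the ranges were 6 to 13 and 4 to 6 other mitotic genes, 0 to 3 and 1 to 2 of the anaphase-promoting complex, 0 to 1 and 1 to 4 of cohesin, 2 to 3 and 1 to 3 regulators, 11 to 15 and 2 to 3 replication genes, and 1 to 2 and 2 to 4 housekeeping genes. Other mitotic genes fell to 6 higher without DAC/TSA array 2 and 7 without DAC/TSA array 3, and replication genes to 11 without either.

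Among the mitotic genes that did not pass, 10 changed sign in some setting, all with a difference of at most 0.11 in size. With scaling on all probes, Aurkb was 0.07, Cdca8 0.03, Cenpf 0.08, Kif4 0.04, Ncaph 0.04, Ndc80 0.01 and Plk4 0.01. With the mean of probes, Cdca8 was 0.08, Kif4 0.03, Smc4 -0.05 and Tfdp2, of the regulators, 0.00. Aurkb with neqc and Cenpf with scaling on kept probes were 0.00. Without 1 array, Aurkb ran from -0.14 to 0.07, Cdca8 from -0.09 to 0.02, Cenpf from -0.12 to 0.06, Kif23 from -0.24 to 0.10, Kif4 from -0.12 to 0.05, Ncaph from -0.08 to 0.01, Ndc80 from -0.17 to 0.00, Plk4 from -0.22 to 0.06, Smc4 from -0.02 to 0.10 and Tpx2 from -0.15 to 0.27. Over 1117 values of single genes in alternative fits, 951 kept sign and side of the threshold, 120 fell short of it, 16 newly passed and 30 changed sign. The causes were not tested.

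The block moved counts and added calls, and it ended none of the 13. With 3 arrays per group, the smallest fold that passed was 1.27 and the largest that did not was 1.42 (Smc2), and 24 of the 31 genes that did not pass had an interval within 0.5 log2 of 0. Probes at the lower end, such as those of Cenph, Pttg1 and Kif18a, were not detected on all arrays.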
